A study of Arabidopsis thaliana with 12 samples.

Results

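The genes described here encode 6 proteins of the photosynthetic membrane of Arabidopsis thaliana, chosen by name and measured by 1 probe each of the 3439 probes on the array. PSBW (AT2G30570) and PSBY (AT1G67740) encode small structural subunits of photosystem II, and PSAN (AT5G64040) encodes a subunit of photosystem I. PSB27 (AT1G03600) and LPA19 (AT1G05385) encode factors that help assemble photosystem II and are not part of the finished complex. LHCB1.5 (AT2G34420), named LHB1B2 in the RefSeq gene table, encodes an antenna protein. All 6 probes were annotated with a single gene, and no other probe was annotated with any of these genes alone.

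Photosystem II takes electrons from water and passes them through the thylakoid membrane towards photosystem I. Its reaction centre is damaged by strong light and is rebuilt in a repair cycle in which the complex is partly taken apart, a new D1 protein is inserted and the complex is reassembled. Structural subunits are part of the finished complex, assembly factors bind to intermediates of this cycle, and antenna proteins collect light for the reaction centres.

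Total RNA came from wild-type plants of the ecotype Columbia 0 and was measured in 12 samples. The 6 control samples, which the titles mark as time 0, came from plants kept in light of 80 µE. The 6 recovered samples came from plants given 1 h at 1000 µE followed by 48 h back at 80 µE. Both groups share the genotype and the growth light, and no label gives the plant part, the plant age or a control kept for the same 48 h, so the light treatment and the passage of time cannot be told apart. No marker gene of a leaf or root cell type among the 9 looked up had a probe of its own, so the sampled tissue could not be checked. Separate plants or cultures for each sample are not stated in the labels, so the p-values reflect a spread between samples that could be technical.

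Several features of the arrays touch every value below. Neighbouring replicate numbers (1 and 2, 3 and 4, 5 and 6) resembled each other most closely, with Pearson's r across probes of 0.854 to 0.939 against 0.650 to 0.794 for other samples of a group, so a group of 6 may hold fewer than 6 separate samples. Samples that carry the same number in both groups also deviated together, and a fit with the replicate number as a block (a paired comparison) is therefore given beside results that it changes. The median log2 intensity was between -1.23 and -1.13 in recovered samples 1, 2, 5 and 6 and between -2.35 and -1.82 in all other samples. Values were quantile normalised, which gives every array the same distribution of values, and changes are differences of log2 intensity, recovered minus control, from limma with Benjamini-Hochberg adjustment over all 3177 tested probes. In bulk samples, fewer cells of a type and less RNA per cell cannot be told apart.

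None of the 6 genes passed an adjusted p of 0.05, while 2.17% of all tested probes did. When neighbouring numbers were averaged, which leaves 3 values per group, limma found 0 such probes, with an unadjusted p under 0.05 for 5.16%. The median change of the 6 genes was -0.21 on the log2 scale, against 0.00 for all tested probes. The mean changes of the 2 assembly factors and of PSBY lay below 0, as did those of 49.8% of tested probes, and the mean changes of PSBW, PSAN and LHCB1.5 lay above 0. The 95% intervals of all 6 included 0. The control and recovered values overlapped for all 6 genes, while the groups did not overlap for 4.75% of tested probes.

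**Figure D1:**
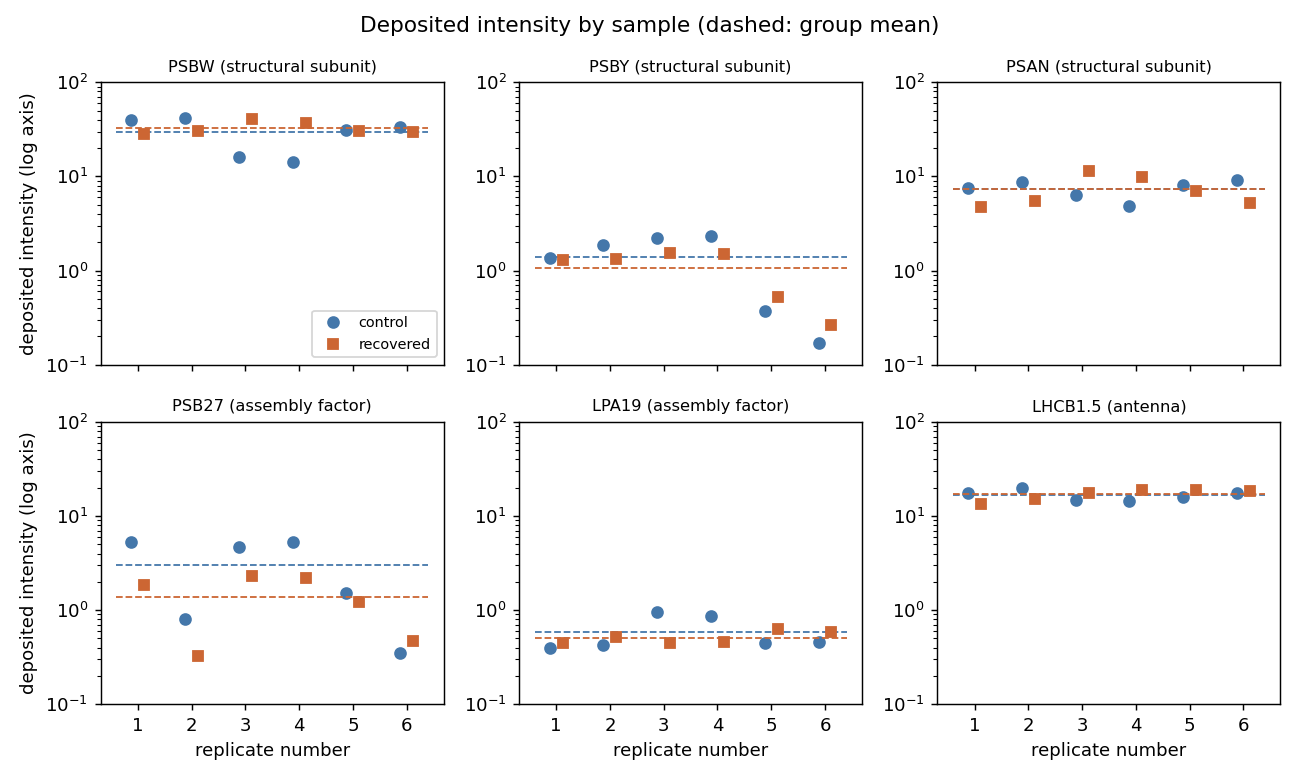
Deposited intensity (log axis, arbitrary units) of the 6 genes in each sample by replicate number. Circles are control samples, squares are recovered samples and dashed lines are the arithmetic group means. PSBW, PSAN and LHCB1.5 stayed bright in all 12 samples, and PSB27 and PSBY varied most between replicate numbers, in both groups alike.

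PSBW is a small membrane-spanning subunit of photosystem II that helps hold the complex and its antenna together. Its deposited intensities in controls 1 to 6 were 39.5, 42.1, 16.0, 14.1, 31.4 and 33.3. In recovered samples 1 to 6 they were 28.4, 30.3, 40.9, 37.3, 30.4 and 29.7. Controls 3 and 4 were the lowest of all samples. Recovered samples 1, 2, 5 and 6 lay between them and the other controls, and recovered 3 and 4 lay among the other controls.

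After normalisation PSBW had a mean log2 intensity of 4.68 ± 0.77 (SD, n = 6) in controls and 5.03 ± 0.16 (n = 6) in recovered samples. The change was 0.35 (SE 0.33, 95% interval -0.36 to 1.07, limma adjusted p = 0.605). By pair of adjacent numbers the mean change was 0.00 in samples 1 and 2, 1.22 in samples 3 and 4 and -0.16 in samples 5 and 6. The positive mean thus rested on controls 3 and 4, and without samples 3 and 4 of both groups the change was -0.08. With array medians aligned it was -0.29.

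PSBY, another small membrane subunit of photosystem II, is made as a precursor that is cut into separate single-span proteins. Its deposited intensities in controls 1 to 6 were 1.36, 1.85, 2.22, 2.34, 0.373 and 0.170. The recovered samples 1 to 6 were at 1.28, 1.33, 1.52, 1.5, 0.519 and 0.264. Samples 5 and 6 were far below samples 1 to 4 in both groups, so the spread within a group was larger than the difference between the groups.

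The normalised log2 mean of PSBY was 0.06 ± 1.26 (SD, n = 6) in controls and -0.38 ± 1.31 (n = 6) in recovered samples. The change of -0.44 had a 95% interval of -1.89 to 1.01 (SE 0.67, limma adjusted p = 0.769). Within same-numbered pairs the recovered sample was nevertheless the lower one in 6 of 6, with differences from -0.59 to -0.19. The same was true of 9.88% of all tested probes. With the replicate number as a block the interval narrowed to -0.87 to -0.02, and the gene still did not pass (limma adjusted p = 0.183, with 2.68% of tested probes called in that fit). In the deposited values only 4 of 6 pairs were lower, because recovered 5 and 6 were above their controls. Leaving out a single sample put the change between -0.85 without control 6 and -0.01 without recovered 6.

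PSAN lies on the lumen side of photosystem I, where plastocyanin delivers electrons. Its deposited intensities in controls 1 to 6 were 7.50, 8.74, 6.34, 4.79, 8.03 and 9.16. Those of recovered samples 1 to 6 were 4.76, 5.50, 11.5, 9.84, 6.97 and 5.23. The recovered sample was the lower one in numbers 1, 2, 5 and 6 and the higher one in numbers 3 and 4.

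The normalised log2 mean of PSAN was 2.80 ± 0.38 (SD, n = 6) in controls and 2.83 ± 0.49 (n = 6) in recovered samples. The change was 0.03 (SE 0.28, 95% interval -0.58 to 0.63, limma adjusted p = 0.973). Opposite values stood behind this mean, at -0.55 in samples 1 and 2, 1.03 in samples 3 and 4 and -0.40 in samples 5 and 6. Without samples 3 and 4 of both groups it was -0.48 (limma adjusted p = 0.157), and the mean was also below 0 under the 3 other scalings. The sign is therefore not settled. Samples 3 and 4 gave the highest change in PSBW, PSAN and LHCB1.5 alike.

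LHCB1.5 encodes a chlorophyll a/b-binding protein of the main light-harvesting complex of photosystem II. The LHCB1 genes are nearly identical, and the probe may measure several of them. Its deposited intensities in controls 1 to 6 were 17.6, 20.1, 14.7, 14.6, 15.9 and 17.7. Recovered samples 1 to 6 had values of 13.3, 15.3, 17.7, 18.8, 19.0 and 18.6. The groups shared most of their range.

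LHCB1.5 was the least variable of the 6 genes. Its pooled SD within groups was 0.22 on the log2 scale, and 1.73% of tested probes had a lower one. The normalised mean was 3.95 ± 0.23 (SD, n = 6) in controls and 4.19 ± 0.20 (n = 6) in recovered samples, a change of 0.23 (SE 0.21, limma adjusted p = 0.582). The 95% interval of -0.21 to 0.68 corresponds to ratios of 0.865 to 1.60. The change was below 0 in samples 1 and 2 (-0.14) and above 0 in samples 3 and 4 (0.48) and 5 and 6 (0.37), and with array medians aligned the mean was -0.53.

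PSB27 is a lumen protein that binds photosystem II intermediates before the oxygen-evolving side is complete and takes part in repair after damage by light. Its deposited intensities in controls 1 to 6 were 5.24, 0.813, 4.73, 5.36, 1.51 and 0.352. In recovered samples 1 to 6 they were 1.83, 0.325, 2.30, 2.19, 1.22 and 0.475. Numbers 2 and 6 were low in both groups, and the recovered sample was below its control in 5 of 6 pairs of deposited values, number 6 being the exception.

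After normalisation the mean of PSB27 was 1.05 ± 1.45 (SD, n = 6) in controls and -0.12 ± 1.47 (n = 6) in recovered samples. The change of -1.17 corresponds to 2.25-fold lower values (SE 0.76, 95% interval of the log2 change -2.81 to 0.47, limma adjusted p = 0.431). This was the largest mean change of the 6 genes, and 91.5% of tested probes had a smaller one in either direction. The recovered sample was below its control in 6 of 6 pairs, as for 9.88% of tested probes, with differences of -1.54, -1.99, -1.01, -1.22, -0.71 and -0.56 for numbers 1 to 6.

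With the replicate number as a block, the SE of the PSB27 change fell from 0.76 to 0.25 and the interval was -1.74 to -0.60, with an adjusted p from limma of 0.0519. That paired limma fit passed after aligning medians (adjusted p = 0.0401) and did not pass after cyclic loess (0.0817) or on the deposited scale (0.126). Of all tested probes, 2.68% were called in the quantile normalised paired fit. The share called under the other scalings was not counted, and these fits were chosen after seeing the data, so the pass cannot be weighed. With adjacent numbers averaged as well, which leaves 3 pairs, the adjusted p from limma was 0.513. Without recovered 2 alone the unpaired change was -0.73.

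The values of PSB27 also parted within adjacent numbers. Recovered 1 and 2 were at 0.81 and -2.32 on the normalised log2 scale, and controls 1 and 2 were at 2.34 and -0.33. The gap of 3.13 between recovered 1 and 2 was reached or exceeded in any adjacent pair by 3.56% of tested probes. Which property of these samples moved with it was not tested.

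LPA19 is related to PSB27 and is known for its part in cutting the end of the D1 precursor during assembly. Its deposited intensities in controls 1 to 6 were 0.396, 0.424, 0.963, 0.862, 0.448 and 0.461. The recovered samples 1 to 6 were at 0.444, 0.514, 0.444, 0.454, 0.624 and 0.587. As deposited, controls 3 and 4 stood above all other samples, and the recovered sample was below its control in 2 of 6 pairs.

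Normalisation turned this picture. Recovered arrays 1, 2, 5 and 6 had the raised medians given above, and relative to the rest of its own array LPA19 was lower in the recovered sample of 6 of 6 pairs. On the normalised scale 9.88% of tested probes were likewise lower in 6 of 6 pairs. The normalised mean was -0.66 ± 0.53 (SD, n = 6) in controls and -1.21 ± 0.41 (n = 6) in recovered samples. The change was -0.56, or 1.47-fold lower (SE 0.30, 95% interval -1.19 to 0.08, limma adjusted p = 0.350). It was similar in the 3 sets of adjacent numbers, at -0.44, -0.74 and -0.48. With the replicate block the adjusted p from limma was 0.120. With the deposited scaling kept the change was -0.13, where the median of all tested probes was 0.47.

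**Figure D2:**
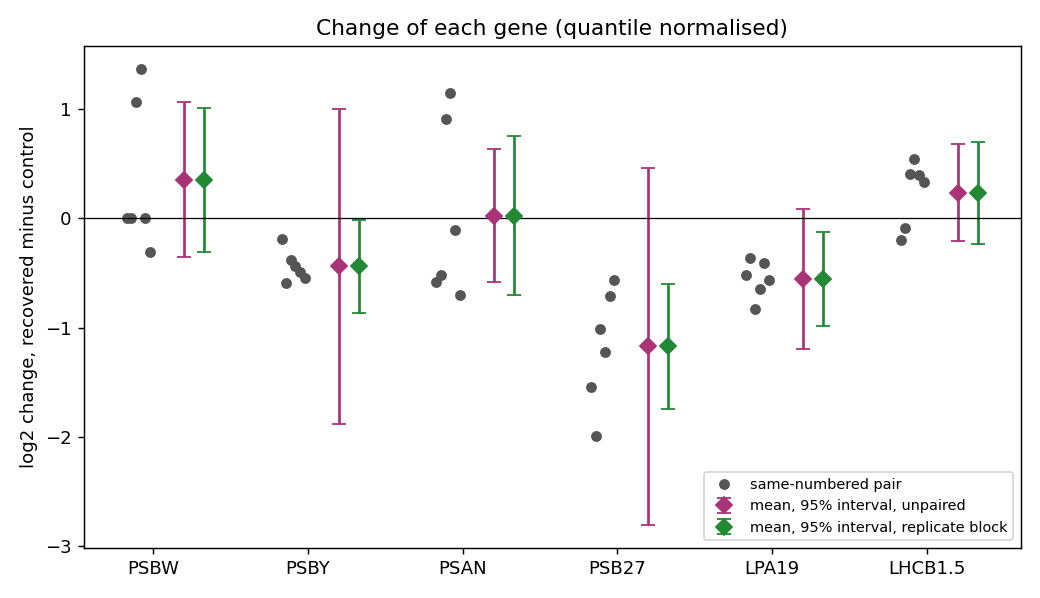
Change of each gene on the normalised log2 scale, recovered minus control. Points are the 6 same-numbered pairs, and diamonds are the mean with its 95% interval from the unpaired fit and from the fit with the replicate number as a block. All 6 pairs of PSBY, PSB27 and LPA19 lie below 0, and the pairs of PSBW and PSAN lie on both sides of it or on it.

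On the normalised scale every pair of PSBY, PSB27 and LPA19 was lower after recovery, as was every pair of 9.88% of tested probes. In PSBW, PSAN and LHCB1.5 the number of normalised pairs that were lower was 1, 4 and 2. The deposited values did not divide the genes in this way. There the number of lower pairs was 4 each for PSBW, PSBY and PSAN, 5 for PSB27, and 2 each for LPA19 and LHCB1.5. Quantile normalisation gives the same value to probes of the same rank, so PSBW, which held rank 10 or 12 on most arrays, had a difference of 0.00 in 3 pairs. Where neighbouring numbers are 2 readings of 1 sample, the pairs amount to 3 separate comparisons.

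The place of each probe in the brightness order of its own array does not depend on any scaling that keeps that order. Brightness differs between probes for reasons other than transcript level, such as probe length and labelling, so the order is not an order of transcript abundance. PSBW was between the 10th and the 33rd brightest of 3439 probes in controls, and between the 10th and the 12th in recovered samples. LHCB1.5 was between the 21st and the 32nd in controls and between the 17th and the 24th in recovered samples. PSAN was between the 45th and the 95th in controls and between the 34th and the 82nd in recovered samples. For these 3 bright probes a percentile near 100 leaves little room for a change, so their rank differences are given without a test.

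The other genes spanned a wide range of ranks. On a scale where 0 is the dimmest and 100 the brightest probe, PSBY had a mean percentile of 80.5 ± 19.9 (SD, n = 6) in controls and 74.8 ± 24.1 (n = 6) in recovered samples. PSB27 had a mean of 89.1 ± 12.04 in controls and 76.5 ± 24.4 in recovered samples. Recovered 2 was at 37.1 for PSB27, against 92.4 in recovered 1, and without it the difference of -12.6 became -4.68. Neither gene passed by limma on these ranks, with adjusted p-values of 0.845 and 0.584 and 2.27% of tested probes called.

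LPA19 had the steadiest loss of rank. Its percentiles in controls 1 to 6 were 61.4, 64.3, 85.7, 83.9, 74.3 and 75.4. Those of recovered samples 1 to 6 were 48.6, 55.7, 72.5, 73.0, 65.6 and 63.4. The loss of rank per pair was 8.6 to 13.2 points, while a loss of rank in 6 of 6 pairs was found for 10.3% of tested probes.

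The mean percentile of LPA19 was 74.2 ± 9.91 (SD, n = 6) in controls and 63.1 ± 9.57 (n = 6) in recovered samples, and the groups overlapped. The difference of -11.0 points had a 95% interval of -23.0 to 0.90 in the unpaired fit (limma adjusted p = 0.337). With the replicate number as a block it passed (limma adjusted p = 0.0338), as did 4.09% of tested probes. The paired call was lost when any 1 number was left out of both groups (limma adjusted p = 0.0681 to 0.109, differences of -11.5 to -10.6 points), and with adjacent numbers averaged the paired fit gave an adjusted p of 0.491.

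**Figure D3:**
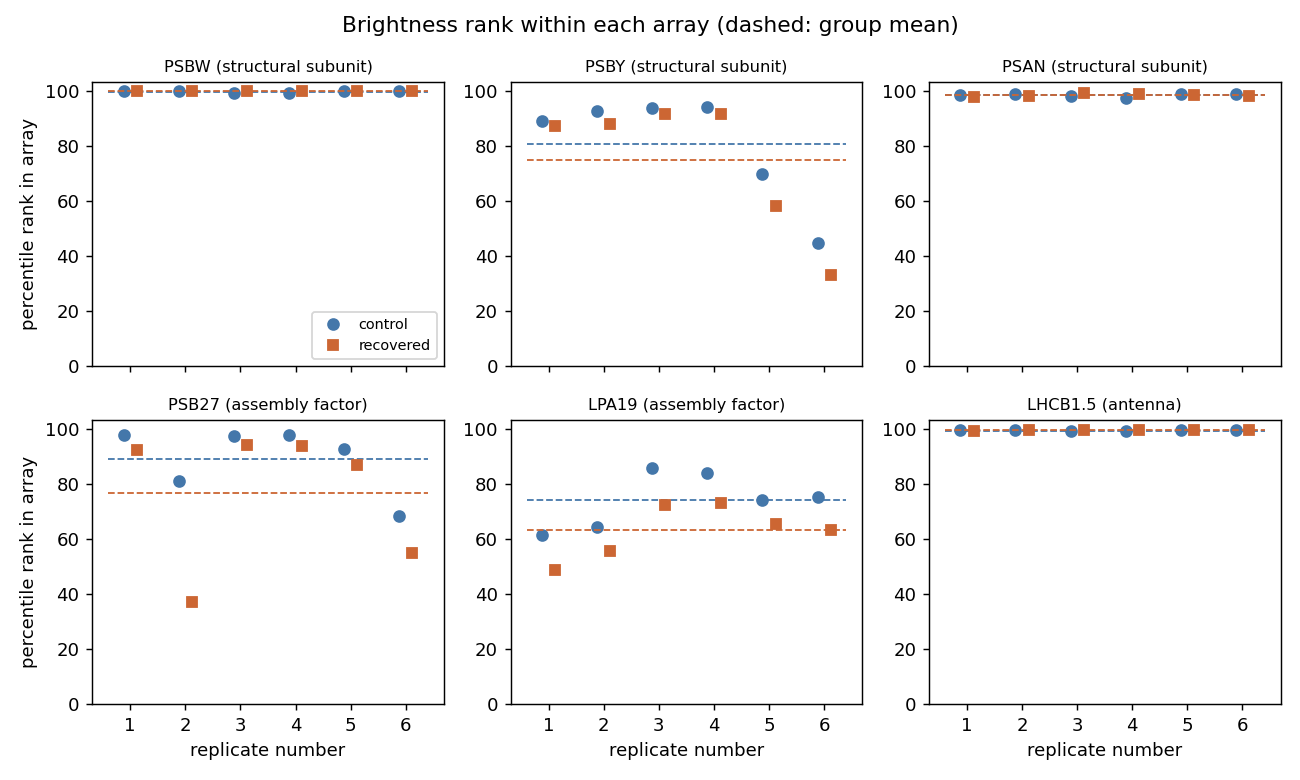
Percentile rank of each probe within its own array (0 dimmest, 100 brightest) by replicate number, with control samples as circles, recovered samples as squares and group means as dashed lines. LPA19 lies 8.6 to 13.2 points lower in the recovered sample of each pair, and PSBW, PSAN and LHCB1.5 lie above 97 in all samples.

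Assembly factors and structural subunits were set against each other within each array, as the mean log2 intensity of PSB27 and LPA19 minus that of PSBW, PSBY and PSAN. A factor that multiplies a whole array cancels in this difference when it is taken from deposited values, but quantile normalisation is not such a factor. The values given here are quantile normalised. In controls 1 to 6 the difference was -2.30, -3.81, -1.43, -1.17, -2.25 and -2.96. In recovered samples 1 to 6 it was -3.07, -4.61, -2.88, -2.80, -2.61 and -2.99. On this normalised scale the recovered sample was lower in each pair, by little in number 6, and the groups overlapped. In the deposited values the recovered sample was lower in numbers 1, 3 and 4, nearly level with its control in numbers 2 and 5, and higher in number 6.

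The mean of this difference was -2.32 ± 0.97 (SD, n = 6) in controls and -3.16 ± 0.73 (n = 6) in recovered samples, so the assembly factors changed by -0.84 relative to the structural subunits. The assembly factors themselves changed by -0.86 and the structural subunits by -0.02, on the log2 scale. No test was made of this score, since its members were chosen with results of these data known. It was -0.51 on the deposited scale and after aligning medians, and -0.72 after cyclic loess. On the quantile normalised scale it was -0.49 without samples 3 and 4 of both groups, and -0.55 without recovered 2. The value of -0.51 on the deposited scale and after aligning medians rested on numbers 3 and 4. In the deposited values the mean of the other numbers showed no fall.

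On the normalised scale the structural subunits did not move as one class. PSBW minus PSBY was 4.61 ± 1.81 (SD, n = 6) in controls and 5.41 ± 1.26 (n = 6) in recovered samples, and PSBY fell relative to PSBW in each of the 6 pairs. That count depended on the scaling, since in the deposited values PSBY rose relative to PSBW in numbers 1, 5 and 6. LPA19 minus PSBY was -0.72 ± 1.26 in controls and -0.84 ± 1.33 in recovered samples, a change of -0.11. PSB27 changed by -0.62 relative to LPA19 and had the lower change of the 2 factors in 5 of 6 pairs. These differences were smaller than the SDs within groups and were not tested.

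**Figure D4:**
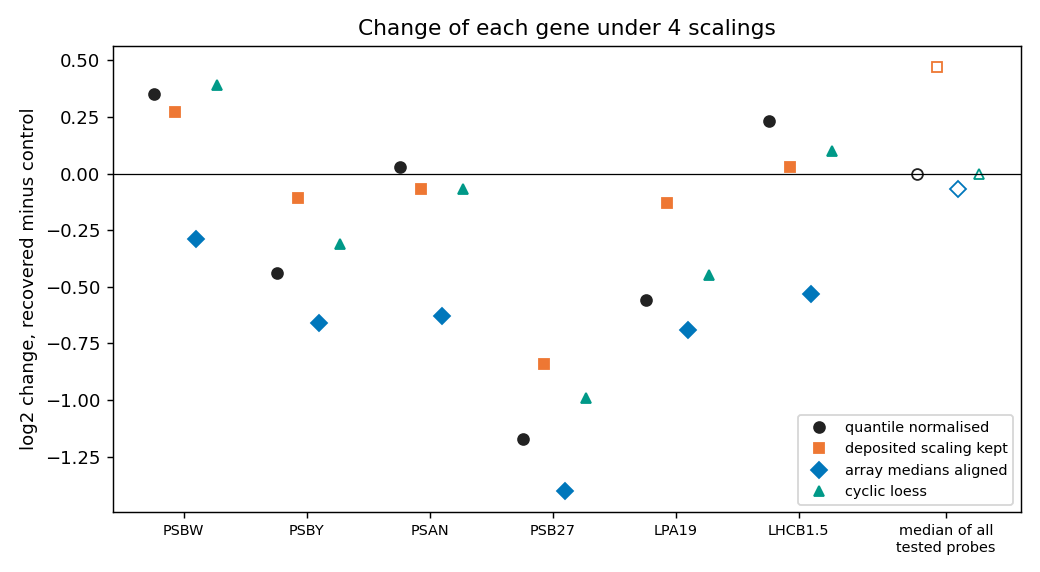
Log2 change of each gene, recovered minus control, under 4 scalings of the arrays, with the median change of all tested probes as open symbols. PSBY, PSB27 and LPA19 lie below 0 under each scaling, PSBW and LHCB1.5 turn below 0 with array medians aligned, and PSAN lies above 0 only with quantile normalisation.

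Quantile normalisation bore differently on the bright probes of PSBW, PSAN and LHCB1.5 than on the other genes. With it, these bright probes were at 0.35, 0.02 and 0.23 relative to the median of all tested probes. PSB27, LPA19 and PSBY were at -1.17, -0.56 and -0.44. With array medians aligned, PSBW, PSAN and LHCB1.5 had changes of -0.29, -0.63 and -0.53, against -0.07 for the median of all tested probes. With the deposited scaling kept they had changes of 0.27, -0.07 and 0.03, where the median of all tested probes was 0.47. Relative to that median, PSB27 was at -1.31, LPA19 at -0.60, PSBY at -0.58, PSAN at -0.55, LHCB1.5 at -0.45 and PSBW at -0.21. After aligning medians these distances were nearly the same, since that scaling differs from the deposited one by a single factor per array. PSB27 had the lowest change of the 6 genes under each of the 4 scalings.

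The wider set of genes for these complexes was thinly covered. Of 73 nuclear genes listed for photosystem II, its assembly and repair, photosystem I, the antenna and the light-stress relatives of the antenna, 6 had a probe of their own, and these were the 6 genes described. The list of photosystem II subunits had 2 of 12 genes measured, the assembly and repair factors 2 of 20, photosystem I 1 of 13 and the antenna 1 of 20. None of the 8 light-stress relatives, which include the ELIP genes that strong light induces, had its own probe. A further 8 listed genes were on probes annotated with several genes and were not read.

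For each gene, the probe with the nearest profile was sought among 623 tested probes of a single other gene, by the root mean square difference over the 12 samples after each profile was centred on its mean. For LPA19 it was AT2G28660, at 0.16 against a root mean square of 0.51 for the profile of LPA19 itself. For PSB27 it was AT2G38570 (0.54 against 1.46), and for PSBY it was AT3G54930 (0.54 against 1.19). PSBW was nearest to AT1G32730 (0.27 against 0.54), and PSAN to CYN (AT3G23490), which encodes a cyanase (0.25 against 0.40). LHCB1.5 varied so little that its nearest profile, AT1G08050, differed from it by 0.25, more than the 0.23 of its own profile. How near the nearest profile of other probes lies was not computed, so these distances do not mark a particular likeness.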

How the data were processed

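The authors deposited intensity values on a linear scale from 0 to 100, 1 per probe and sample. How background, scaling and repeat spots were handled is not stated in the labels, so distance from background is unknown, and precision is limited by the number of arrays. Of the per-sample columns, 0 were left unused. Arrays were quantile normalised. The floor was 0.0322, the 5th percentile of the positive deposited values, and lower values were raised to it before taking log2. Testing needed 6 or more deposited values over the floor, which 3177 probes had, the 6 genes among them. No value of the 6 genes lay at the floor. The groups were tested with limma (version 3.58.1, R 4.3.3, two-sided, unpaired) on log2 values and on percentile ranks within arrays. The unpaired log2 fit was run on simulated data in which all samples were independent. That simulation left out the likeness of neighbouring and same-numbered samples, so it cannot show how the p-values behave on these arrays. Groups and replicate numbers came from the titles. Same-numbered samples deviated together from the group means, with correlations over probes of 0.111 to 0.487 in the 6 pairs. The pairing rests on this and on the titles only. Genes were named from the platform's annotation and RefSeq (assembly TAIR10.1), and no coordinates are given because the build behind the array is not stated. The 6 genes, the lists and the tests were chosen with earlier results of these data known. Named were all 6 genes, list genes with their own probe, and the nearest profile of each gene. Alternatives covered scaling, floor, filter, array weights, variance model, pairing, adjacent numbers and left-out samples. The paired fits with adjacent numbers averaged, with a number left out and with other scalings were chosen after seeing the data.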

Additional observations from a re-analysis of the deposited data

How the results depend on the processing

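PSB27 and LPA19 stayed below 0 in every setting run on either scale, and PSBY did so except for its rank change of 2.65 without recovered 6. No log2 change of the 6 genes passed in an unpaired fit. The change of PSBW was -0.29 after aligning medians, -0.01 with array weights and -0.08 without samples 3 and 4 of both groups. That of LHCB1.5 was -0.53 after aligning medians. That of PSAN was -0.07 on the deposited scale, -0.63 after aligning medians, -0.07 after cyclic loess, -0.23 with array weights and -0.48 without samples 3 and 4. Without samples 3 and 4 the rank changes of PSBW and PSAN were -0.0145 and -0.611 points. The cause was not tested.

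Leaving out 1 sample at a time gave ranges of 0.13 to 0.47 for PSBW, -0.85 to -0.01 for PSBY, -0.12 to 0.13 for PSAN, -1.58 to -0.73 for PSB27, -0.68 to -0.42 for LPA19 and 0.16 to 0.28 for LHCB1.5. The assembly factors minus the structural subunits ranged from -1.14 to -0.55. Rank changes ranged from -12.9 to 2.65 points for PSBY, -0.207 to 0.142 for PSAN, -16.7 to -4.68 for PSB27 and -13.6 to -8.14 for LPA19.

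With the replicate block the rank change of LPA19 of -11.0 points passed, and no other change of the 6 genes passed with quantile normalised values or ranks. The block gave 42 probes higher and 43 lower, against 28 and 41 without it, and 130 called on rank against 72. Counts of probes higher and lower were 29 and 6 on the deposited scale, 15 and 53 after aligning medians, and 26 and 35 after cyclic loess. They were 47 and 74 with the floor at the 20th percentile, and 41 and 62 with no filter on dim probes. Array weights gave 92 and 147, and a variance trend gave 43 and 66. A threshold of 0.01 gave 6 and 7. With neighbouring numbers averaged to 3 values per group there were 0 higher, 0 lower and 0 on rank by limma, with and without the block, where 5.16% of probes had an unadjusted p under 0.05 without it. With them as a random block there were 0, 1 and 2. Of the called probes, 40.6% were higher, 82.9% on the deposited scale and 22.1% after aligning medians. Leaving out 1 sample gave 9 to 30 higher, 10 to 38 lower and 36 to 89 on rank. Without samples 1 and 2 of both groups there were 7 higher, 8 lower and 36 on rank, without 3 and 4 there were 156, 175 and 337, and without 5 and 6 there were 2, 0 and 6.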
